A study of Mus musculus with 8 samples.

Results

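The heat shock genes described here are the 10 genes Hspa1a, Hspa1b, Hspa8, Hsph1, Dnajb1, Hsp90aa1, Hsp90ab1, Hspb1, Hspd1 and Hspe1, chosen by name as cytosolic and mitochondrial chaperones. Their members on the array are all probe sets to which the platform annotation gives one of these symbols alone. This yielded 22 probe sets for 9 of the 10 genes, out of 45037 probe sets and 18193 named genes in all. Hsp90ab1, the constitutive cytosolic HSP90 gene, had no listed probe set and was not analysed here. The data are log2 signals of 1-colour Affymetrix arrays, 5 hybridised with RNA of Sca1-MALT1 transgenic mice and 3 with RNA of wild-type (WT) mice. All samples were Sca1+Lin- cells, positive for the stem cell antigen Sca1 and negative for lineage markers, sorted from bone marrow, and all RNA was linearly amplified before labelling. The transgene carries the name of Sca1, whose regulatory sequence is active in stem and progenitor cells, and of MALT1, an oncogene whose protein relays antigen receptor signals to NF-kB. The labels give no age, sex, strain, batch or number of animals per sample. The p-values below therefore reflect variation among the 8 samples as labelled, part of which may be technical.

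Heat shock proteins are chaperones that hold, refold or hand on proteins that have lost or not yet reached their folded form. HSP70 binds short stretches of unfolded chain in a cycle driven by ATP, with J proteins that deliver clients and exchange factors that release them. HSP90 completes the folding of kinases and receptors, and the chaperonin HSP60 with its lid HSP10 encloses proteins imported into mitochondria. When unfolded protein accumulates, the factor HSF1 forms trimers on heat shock elements, inverted repeats of the letters GAA, and transcription of the inducible members rises. Handling of cells during tissue dissociation and sorting is also known to induce these genes.

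Promoter windows from RefSeq (build GRCm38.p6, 250 bases before to 50 bases after a transcript start) matched 7 of the 10 genes, with 10 windows in all. Hspa8, Hsp90aa1 and Hsp90ab1 had no match. The motif GAANNTTCNNGAA, 3 alternating units of a heat shock element, was searched on both strands (TTCNNGAANNTTC on the other), as were its pairs GAANNTTC and TTCNNGAA, which lie within it. The 3-unit motif stood in windows of 3 of the 7 genes, Hsph1, Hspd1 and Hspe1, against 0.662% of all 27025 genes with a window and 0.603% of all 32851 windows. For Hspd1 only 1 of its 2 windows held it. GAANNTTC stood in 7.86% and TTCNNGAA in 8.52% of all windows. A match describes the letters of the window and is not evidence of binding. The windows printed here are those of the inducible HSP70 pair, which are nearly the same sequence, and examples that hold the 3-unit motif. Letters are in lower case, and capitals mark GAANNTTC or TTCNNGAA. The Hspa1a window lies at chr17:34972107-34972406 on the minus strand.
Hspa1a: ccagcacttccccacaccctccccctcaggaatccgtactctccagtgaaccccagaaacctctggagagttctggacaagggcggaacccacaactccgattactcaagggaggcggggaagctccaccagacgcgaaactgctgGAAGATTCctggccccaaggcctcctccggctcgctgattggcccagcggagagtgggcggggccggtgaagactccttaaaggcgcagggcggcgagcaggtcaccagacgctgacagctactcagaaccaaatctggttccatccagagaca
The Hspa1b window lies at chr17:34959189-34959488 on the minus strand.
Hspa1b: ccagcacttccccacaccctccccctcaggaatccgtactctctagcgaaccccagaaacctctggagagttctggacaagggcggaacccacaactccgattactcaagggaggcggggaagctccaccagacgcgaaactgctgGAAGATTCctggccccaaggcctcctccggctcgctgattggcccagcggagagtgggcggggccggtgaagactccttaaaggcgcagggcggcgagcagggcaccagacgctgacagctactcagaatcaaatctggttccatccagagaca
The Hsph1 window lies at chr5:149636266-149636565 on the minus strand.
Hsph1: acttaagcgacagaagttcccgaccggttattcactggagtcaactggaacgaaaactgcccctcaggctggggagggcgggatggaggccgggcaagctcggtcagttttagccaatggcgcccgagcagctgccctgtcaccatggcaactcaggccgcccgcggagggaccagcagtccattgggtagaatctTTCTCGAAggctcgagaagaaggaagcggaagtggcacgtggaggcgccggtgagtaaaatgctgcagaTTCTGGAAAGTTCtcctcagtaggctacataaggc
The Hspe1 window lies at chr1:55087898-55088197 on the plus strand.
Hspe1: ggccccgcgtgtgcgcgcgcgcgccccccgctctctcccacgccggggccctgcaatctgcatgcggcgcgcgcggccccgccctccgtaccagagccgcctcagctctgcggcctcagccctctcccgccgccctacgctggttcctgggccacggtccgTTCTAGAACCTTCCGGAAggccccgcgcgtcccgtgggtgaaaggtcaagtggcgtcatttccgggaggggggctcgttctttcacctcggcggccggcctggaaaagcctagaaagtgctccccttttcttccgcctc
The windows of Hspa1a and Hspa1b were identical at 296 of 300 positions, and each held 1 GAANNTTC pair and no 3-unit motif. The genes of HSP60 (Hspd1) and HSP10 (Hspe1) lie on opposite strands of chromosome 1. The 2 Hspd1 starts lie 95 and 216 bases from the Hspe1 start, and one of the Hspd1 windows shares 285 bases with the Hspe1 window. Overlapping matches of the 3-unit motif therefore belong to both genes, beginning 89 and 84 bases before the Hspe1 start. In Hsph1 the match lies 15 or 36 bases after the start, depending on which of its 2 starts is taken.

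None of the 9 measured heat shock genes differed between Sca1-MALT1 and WT cells beyond the spread between arrays. By limma's test, 0 of 9 genes had an adjusted p under 0.05, against 0.0879% of all 18193 genes (16 genes), and 0 of 9 had an unadjusted p under 0.05, against 10.2% of all genes. The groups overlapped in all 9 genes, while they did not overlap in 7.13% of all genes. At such shares 0 of 9 lies near the background, so these counts do not set the heat shock genes apart from other genes. By their brightest probe set, 2 genes had a mean above that of WT and 7 below it, while 50.7% of all genes were above. The median of the 9 log2 differences was -0.13, against 0.004 over all genes. The differences ranged from -0.67 for Hsph1 to 0.47 for Hspa1a. At the level of probe sets, 0 of 22 had an adjusted p under 0.05, against 0.06% of all 45037, and 1 of 22, of Hspe1, had an unadjusted p under 0.05, against 9.47% of all.

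**Figure D1:**
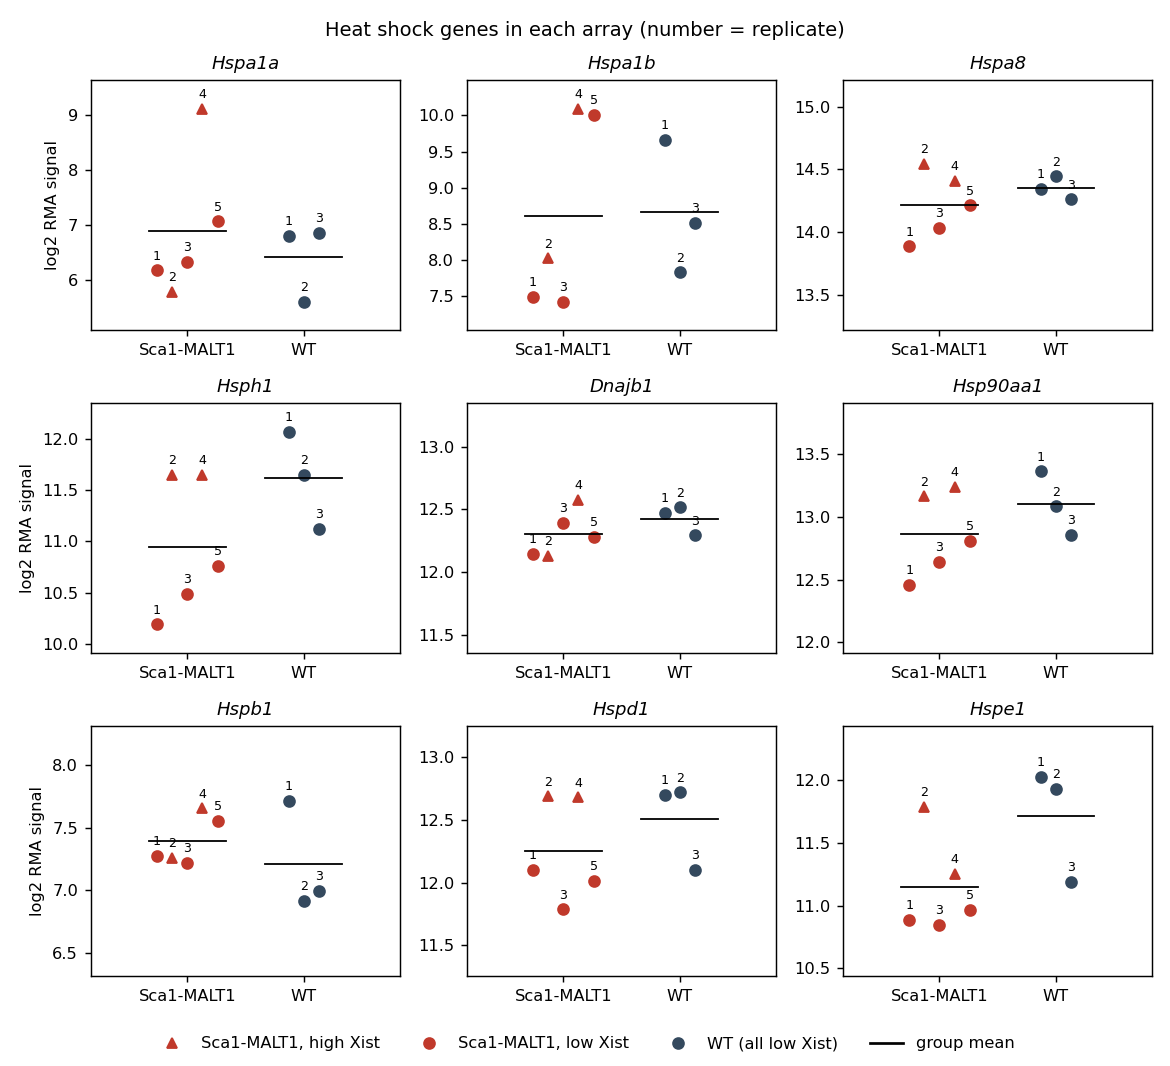
Log2 signal of the brightest probe set of each heat shock gene (vertical axes, which start at different levels) in the 5 Sca1-MALT1 and 3 WT arrays, with replicate numbers and group means as lines. Triangles mark the Sca1-MALT1 arrays with a high Xist signal. The groups overlap in all 9 genes, and Sca1-MALT1 replicate 4 stands highest for Hspa1a at 9.11.

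Hspa1a and Hspa1b encode the stress-inducible cytosolic HSP70, and their near-identical transcripts may share probes, so their separation is uncertain. Hspa1a read 6.18, 5.79, 6.34, 9.11 and 7.07 in Sca1-MALT1 replicates 1 to 5, against 6.81, 5.62 and 6.86 in WT replicates 1 to 3. Sca1-MALT1 replicate 4 was higher than every other array, and the other 7 arrays lay between 5.62 and 7.07, around the array medians of 6.40 to 6.48, where signal above background could not be judged. The log2 difference was 0.47 (SE 0.72, adjusted p = 0.866 by limma, 95% interval -1.17 to 2.11), and -0.08 without Sca1-MALT1 replicate 4. Hspa1b read 7.48, 8.02, 7.42, 10.09 and 10.01 in Sca1-MALT1 arrays, against 9.66, 7.82 and 8.51 in WT arrays. High values thus occurred in both genotypes, in Sca1-MALT1 replicates 4 and 5 and in WT replicate 1. The log2 difference was -0.06 (SE 0.76, adjusted p = 0.990, 95% interval -1.79 to 1.68), an interval that allows a fold of 0.288 to 3.20. The other 2 Hspa1b probe sets gave 0.10 (SE 0.71) and -0.001 (SE 0.78) and were also highest in Sca1-MALT1 replicates 4 and 5. Hspa1a, by its only probe set, was also highest in these arrays, at 9.11 and 7.07, against at most 6.86 in WT arrays. Over the 8 arrays the SD was 1.10 for Hspa1a and 1.13 for Hspa1b, above that of 97.6% and 97.8% of genes.

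Hspa8 encodes HSC70, the constitutive HSP70 that folds new proteins and uncoats clathrin vesicles. Its brightest probe set read 13.89, 14.55, 14.03, 14.41 and 14.21 in Sca1-MALT1 arrays, against 14.35, 14.44 and 14.26 in WT arrays. Replicates 1, 3 and 5 were below all WT arrays, and replicate 2 was above them. The log2 difference was -0.13 (SE 0.16, adjusted p = 0.830, 95% interval -0.51 to 0.24), or between 0.704 and 1.18 on the fold scale. All 4 Hspa8 probe sets were lower on average in Sca1-MALT1, by -0.29 to -0.13, and the signal of the brightest was near the top of the scale, whose highest value on any array was 15.41.

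Hsph1 encodes HSP110, which releases ADP from HSP70 and helps it to take apart aggregates. Its brightest probe set read 10.19, 11.65, 10.49, 11.65 and 10.76 in Sca1-MALT1 arrays, against 12.07, 11.64 and 11.12 in WT arrays. Sca1-MALT1 replicates 2 and 4 were level with WT replicate 2, and replicates 1, 3 and 5 were below all WT arrays. The log2 difference was -0.67 (SE 0.39, adjusted p = 0.608, 95% interval -1.55 to 0.22). The dimmer probe set had the same sign (-0.30, SE 0.40), and again replicates 2 and 4 were the highest of the Sca1-MALT1 arrays, at 7.97 and 8.27.

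Dnajb1 encodes HSP40, the inducible J protein that stimulates the ATPase of HSP70. It read 12.14, 12.13, 12.39, 12.58 and 12.28 in Sca1-MALT1 arrays, against 12.47, 12.52 and 12.29 in WT arrays, a log2 difference of -0.12 (SE 0.13, adjusted p = 0.805, 95% interval -0.43 to 0.18). Its other probe set had the opposite sign. That one read 8.72, 8.03, 8.90, 9.06 and 9.03 in Sca1-MALT1 arrays, against 8.13, 8.38 and 8.22 in WT arrays, a difference of 0.50 (SE 0.23, adjusted p = 0.554 over all probe sets). On it 4 of 5 Sca1-MALT1 arrays were above all WT arrays, and replicate 2 was below them. The direction for Dnajb1 therefore depends on the probe set, and neither difference passed the test.

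Hsp90aa1 encodes the inducible cytosolic HSP90. Its brightest probe set read 12.46, 13.16, 12.64, 13.24 and 12.81 in Sca1-MALT1 arrays, against 13.36, 13.08 and 12.86 in WT arrays. Replicates 1, 3 and 5 were again below all WT arrays, and replicates 2 and 4 were within the WT range. The log2 difference was -0.24 (SE 0.21, adjusted p = 0.758, 95% interval -0.72 to 0.24). The sign was the same in all 5 Hsp90aa1 probe sets, with differences of -0.95 (SE 0.56) to -0.10 (SE 0.21). The probe set with the largest difference read 9.97 in Sca1-MALT1 replicate 5, against 11.20 to 12.39 in the other Sca1-MALT1 arrays and 11.71 to 13.09 in WT arrays.

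Hspb1 encodes HSP25 (HSP27 in human), a small heat shock protein that holds unfolded proteins without using ATP. It read 7.28, 7.26, 7.22, 7.65 and 7.55 in Sca1-MALT1 arrays, against 7.71, 6.91 and 6.99 in WT arrays. All 5 Sca1-MALT1 values lay within the WT range, which WT replicate 1 set at its upper end. The log2 difference was 0.18 (SE 0.20, adjusted p = 0.808), and 0.44 without WT replicate 1 (adjusted p = 0.588), still short of the threshold. The other probe set differed by 0.10 (SE 0.22).

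Hspd1 and Hspe1 encode the mitochondrial chaperonin HSP60 and its co-chaperonin HSP10. Hspd1 read 12.10, 12.69, 11.79, 12.68 and 12.02 in Sca1-MALT1 arrays, against 12.70, 12.72 and 12.10 in WT arrays, a log2 difference of -0.25 (SE 0.26, adjusted p = 0.788, 95% interval -0.84 to 0.33). Sca1-MALT1 replicate 1 and WT replicate 3 were level to the second decimal. Hspe1 read 10.89, 11.79, 10.85, 11.26 and 10.96 in Sca1-MALT1 arrays, against 12.02, 11.93 and 11.19 in WT arrays, a log2 difference of -0.57 (SE 0.27, adjusted p = 0.523, 95% interval -1.18 to 0.05). Its dimmer probe set gave -0.65 (SE 0.27, unadjusted p = 0.040, adjusted p = 0.505 by limma over all probe sets). In Hspe1 replicates 1, 3 and 5 were below every WT array, and in both genes WT replicate 3 was the lowest of its group. In bulk RNA, fewer cells of a type and less RNA per cell cannot be told apart.

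**Figure D2:**
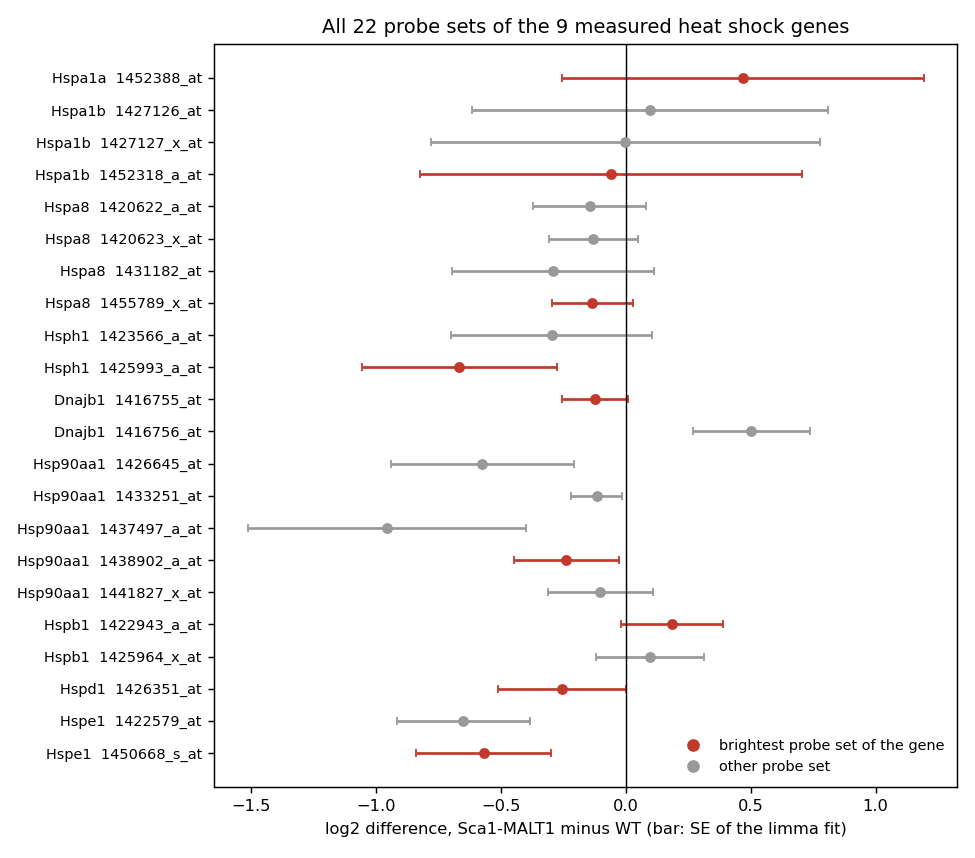
Log2 difference (Sca1-MALT1 minus WT, horizontal axis) of all 22 probe sets, with the SE of the limma fit as bars and the brightest probe set of each gene in red. The 2 Dnajb1 probe sets lie on opposite sides of 0, at -0.12 and 0.50, while all 5 Hsp90aa1 and both Hspe1 probe sets lie below 0. Some of the Hsp90aa1 probe sets had signals below the array medians.

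The same 5 genes, Hspa8, Hsph1, Hsp90aa1, Hspd1 and Hspe1, were low in Sca1-MALT1 replicates 1, 3 and 5 and higher in replicates 2 and 4. This split matched the signal of Xist, the non-coding RNA that coats the inactive X chromosome in female cells. Xist read 13.09 and 12.46 in Sca1-MALT1 replicates 2 and 4, against 6.20 to 6.58 in the other Sca1-MALT1 arrays and 6.21 to 6.46 in WT arrays, so every array with high Xist was a Sca1-MALT1 array. Within Sca1-MALT1, the high-Xist arrays were above all low-Xist arrays in 5 of 9 heat shock genes and below them in 0, where 7.13% and 13.6% of all genes were so placed. With the low-Xist arrays alone, 3 against 3 and set apart after seeing the data, these 5 genes were lower in each Sca1-MALT1 array than in each WT array, as were 7.96% of all genes, but for Hspd1 the nearest values of both groups were level to the second decimal. Both counts rest on the same 3 low-Xist Sca1-MALT1 arrays. Each then had an exact permutation p of 0.10, the smallest that 3 against 3 allows. In limma's fit on these 6 arrays, Hsph1 differed by -1.13 (SE 0.27, adjusted p = 0.166), Hspe1 by -0.82 (SE 0.23, adjusted p = 0.221), Hspd1 by -0.54 (SE 0.21, adjusted p = 0.321), Hsp90aa1 by -0.46 (SE 0.18, adjusted p = 0.320) and Hspa8 by -0.31 (SE 0.14, adjusted p = 0.389). Of the 9 genes, 0 passed the adjusted threshold there, against 0.324% of all genes, and 4 had an unadjusted p under 0.05, against 13.9% of all genes. With all 8 arrays and Xist as a term, 0 of 9 passed (0.159% of all genes) and the same 4 genes as in the low-Xist fit, Hsph1, Hspe1, Hspd1 and Hsp90aa1, had an unadjusted p under 0.05 (13.1% of all genes). Since every high-Xist array was Sca1-MALT1, this fit must give the same genotype differences as the low-Xist arrays alone. Only the estimate of spread differs, so the shared genes are not separate evidence. The term for Xist itself reached an adjusted p of 0.859 at the lowest among the 9 genes. Hspa1a, Hspa1b, Dnajb1 and Hspb1 overlapped in each of these comparisons. The labels give no sex, and with 2 arrays of high Xist the part of sex, as against any other property of those samples, was not tested.

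**Figure D3:**
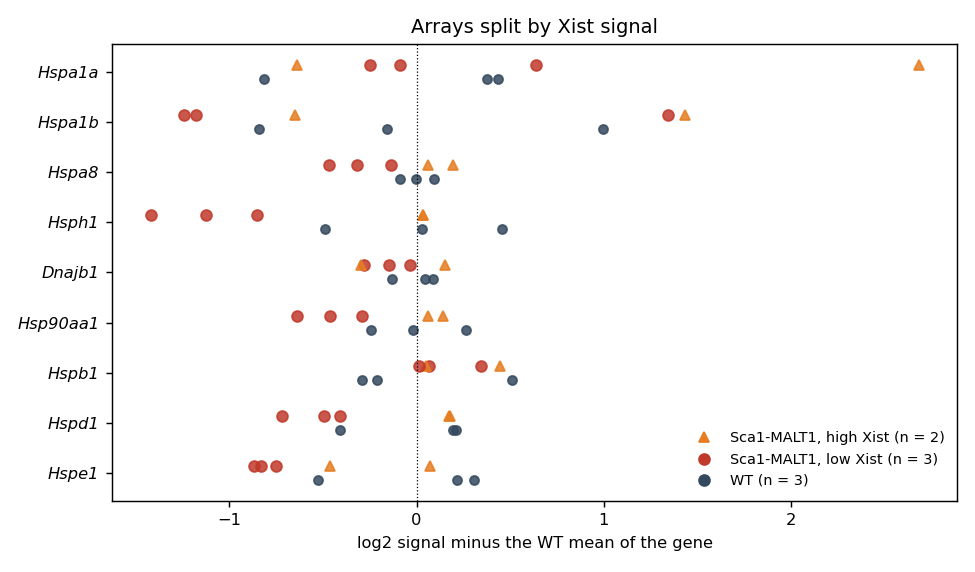
Log2 signal of each heat shock gene minus its WT mean (horizontal axis), for the 2 high-Xist Sca1-MALT1 arrays (triangles), the 3 low-Xist Sca1-MALT1 arrays (red circles) and the 3 WT arrays (dark circles). In Hspa8, Hsph1, Hsp90aa1 and Hspe1 the red circles lie left of all dark circles and of both triangles. In Hspd1 one red circle is level with a dark one.

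Genes that regulate or assist these chaperones were read from lists, and over all 8 arrays no gene of the chaperone lists named here passed the threshold over all genes in limma's test. Among heat shock factors, 0 of 4 measured genes passed and the median log2 difference was -0.15. Hsf1 itself was not analysed here. Hsf2, a partner of HSF1 in trimers, read 5.05 to 5.70 in Sca1-MALT1 arrays, against 5.70 to 6.42 in WT arrays (difference -0.61, SE 0.22, adjusted p = 0.404). The groups did not overlap in this direction for 1 of 4 genes in the list, Hsf2, against 2.87% of all genes. Hsf2 was at or below the array medians in all 8 arrays. Hsbp1, which binds HSF1 trimers, differed by -0.22 and Hsf4 by -0.07. HSP90 co-chaperones, which load clients or drive the ATPase, lay at a median of -0.30, with negative differences in 8 of 10 measured genes, 0 passing and 1 with an unadjusted p under 0.05 (10.2% of all genes). The members with the lowest p were Chordc1 at -0.36 (SE 0.15, adjusted p = 0.467), the ATPase activator Ahsa1 at -0.46 (SE 0.20, adjusted p = 0.494) and the phosphatase Ppp5c at -0.33 (SE 0.15, adjusted p = 0.504). In this list too, 7 of 10 genes were higher in both high-Xist than in all low-Xist Sca1-MALT1 arrays, as were 7.13% of all genes. The same held for 4 of 17 genes in the remaining HSP70 family and its exchange factors, 4 of 14 in TRiC and prefoldin and 4 of 15 among the other mitochondrial chaperones and proteases. It held for 1 of 13 cytosolic J proteins, 1 of 13 chaperones of the endoplasmic reticulum, 0 of 4 heat shock factors and 0 of 8 other small heat shock proteins. With the low-Xist arrays alone the median of the HSP90 co-chaperones was -0.45. In that list 5 of 10 genes, Ahsa1, Chordc1, Ppp5c, Stip1 and Sugt1, were below all WT arrays (7.96% of all genes) and 0 above (12.2%). Below and above were 3 and 4 of 17 genes in the remaining HSP70 family, and 4 and 0 of 14 in TRiC and prefoldin. The counts were 3 and 3 of 15 mitochondrial genes, 2 and 1 of 13 cytosolic J proteins and 0 and 6 of 13 endoplasmic reticulum chaperones. They were 1 and 0 of 4 heat shock factors and 0 and 1 of 8 other small heat shock proteins.

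In the remaining HSP70 family and its exchange factors, the median was -0.09, with 7 of 17 genes higher and 0 passing. Hspa13, an HSP70 of microsomes, stood at 0.63 (SE 0.22, adjusted p = 0.383), the ligase Stub1 at 0.25 (SE 0.09, adjusted p = 0.407) and Bag3, an HSF1 target that links HSP70 to autophagy, at 0.45 (SE 0.20, adjusted p = 0.500). These genes, named for the lowest p, were higher in every Sca1-MALT1 array than in every WT array. That held for 3 of 17 genes in the list, against 4.27% of all genes. Cytosolic J proteins had a median of -0.07 with 0 of 13 passing. Dnaja1, the constitutive J partner of Hspa8, was lower in all Sca1-MALT1 arrays, at 11.94 to 12.27 against 12.35 to 12.44 in WT arrays (difference -0.32, SE 0.11, adjusted p = 0.382), as was Dnajc21 (-0.28, SE 0.12, adjusted p = 0.491). In this list 2 of 13 genes were lower in every Sca1-MALT1 array than in every WT array, against 2.87% of all genes. Dnajb2 stood at 0.58. Subunits of the cytosolic chaperonin TRiC and of prefoldin, which fold actin and tubulin, lay at a median of -0.12, with negative differences in 12 of 14 genes and 0 passing, led by Pfdn1 at -0.71, Pfdn6 at -0.42 and Cct6a at -0.36 (adjusted p = 0.398 to 0.558). Other small heat shock proteins had a median of 0.05, with 0 of 8 passing. Hspb6, the small heat shock protein of muscle, was higher in all Sca1-MALT1 arrays, at 6.69 to 7.77 against 6.44 to 6.66 in WT arrays (0.92, SE 0.24, adjusted p = 0.292 by limma). That held for 1 of 8 genes in the list, against 4.27% of all genes. With the low-Xist arrays alone, a split made after seeing the data, Hspb6 passed the threshold, at 1.12 (SE 0.14, adjusted p = 0.0425 by limma). So did 0.324% of all genes. Its WT values lay close to the array medians of 6.40 to 6.48, where signal above background could not be judged. Hspb9 stood at 0.25 and Cryaa at -0.16 over all 8 arrays. A mixed list set up as other HSF1-responsive genes had a median of 0.83 over 4 measured genes with 0 passing. Jun, also counted among the immediate early genes below, stood at 1.58, Ddit4 at 1.32 and Hspa1l, the HSP70 of testis, at -0.30. Whether these genes respond to HSF1 in these cells was not tested, so the median is not a reading of HSF1 activity.

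The mitochondrial chaperones and proteases other than Hspd1 and Hspe1 had a median of 0.15, with positive differences in 8 of 15 genes and 0 passing. In 2 of 15 every Sca1-MALT1 array was above every WT array, as in 4.27% of all genes. Grpel2, an exchange factor of mitochondrial HSP70, stood at 0.31 (SE 0.12, adjusted p = 0.453), the matrix protease Lonp1 at 0.29 (SE 0.12, adjusted p = 0.458) and Timm44, which tethers mitochondrial HSP70 to the import channel, at -0.37 (SE 0.16, adjusted p = 0.494). Chaperones of the endoplasmic reticulum, the relatives of these genes on the secretory route, had a median of 0.50 with 11 of 13 higher and 0 passing. In 5 of 13 the groups did not overlap, with Sca1-MALT1 higher, against 4.27% of all genes. Dnajb9 stood at 1.35 (SE 0.21, adjusted p = 0.0915), the HSP90 of this compartment, Hsp90b1, at 0.78 (SE 0.17, adjusted p = 0.209) and Creld2 at 1.53 (SE 0.38, adjusted p = 0.271). Ribosomal protein genes had a median of -0.06 over 10 measured genes, with Rpl10a at -0.24, Rps18 at -0.20 and Rps6 at -0.22 and 0 passing.

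**Figure D4:**
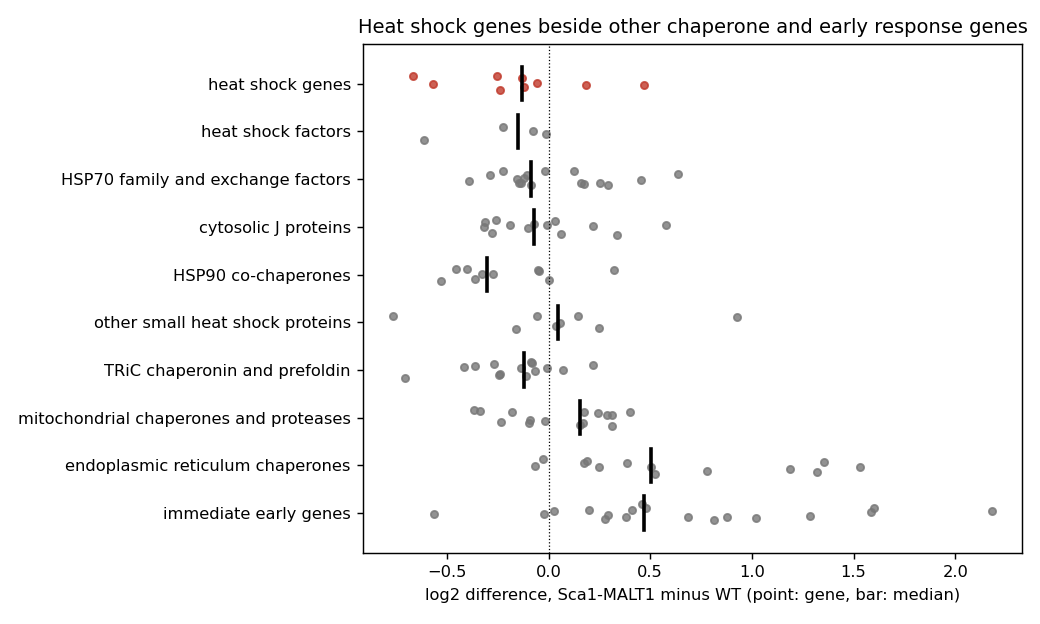
Log2 difference (Sca1-MALT1 minus WT, horizontal axis) of each measured gene in the heat shock group (red) and in related lists (grey), with the median of each list as a bar. The heat shock genes have a median of -0.13, HSP90 co-chaperones of -0.30, endoplasmic reticulum chaperones of 0.50 and immediate early genes of 0.47.

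Related genes of different compartments or inducibility were set against each other within arrays, as the change of their log2 ratio, in 6 pairs with p-values adjusted over the 6. For the ratio of Hsp90b1 to Hsp90aa1 the groups did not overlap, but the difference did not pass after adjustment. It was 0.96, -0.38, 0.20, -0.01 and 0.11 in Sca1-MALT1 arrays, against -1.22, -0.81 and -0.49 in WT arrays, a difference of 1.02 (exact permutation p = 0.0179, the smallest possible, adjusted p = 0.107). Hsp90b1 alone did not overlap either, at 12.79 to 13.42 in Sca1-MALT1 arrays against 12.15 to 12.36 in WT arrays, while Hsp90aa1 alone overlapped. Only the difference between genotypes is read from these ratios, since levels of different probe sets are not comparable, and this pair was added after its values could be seen. The ratio of Hspd1 to Hspe1, which share a promoter region, was above all WT arrays in 4 of 5 Sca1-MALT1 arrays, with a difference of 0.31 (exact permutation p = 0.0714, adjusted p = 0.214). The ratio of Hspa5, the HSP70 of the endoplasmic reticulum, to Hspa8 differed by 0.32 (exact permutation p = 0.232, adjusted p = 0.464), with Sca1-MALT1 replicate 5 below all WT arrays and the other 4 above them. Hspa9, the mitochondrial HSP70, against Hspa8 gave 0.04 (exact permutation p = 0.732, adjusted p = 0.879). The inducible genes against Hspa8 gave 0.60 for Hspa1a (exact permutation p = 0.518, adjusted p = 0.777) and 0.07 for Hspa1b (exact permutation p = 0.946, adjusted p = 0.946). Of the 6 ratios, 0 passed after adjustment. The pairs of Hsp90ab1 with Hsp90aa1 and with Hsp90b1 were not analysed here.

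**Figure D5:**
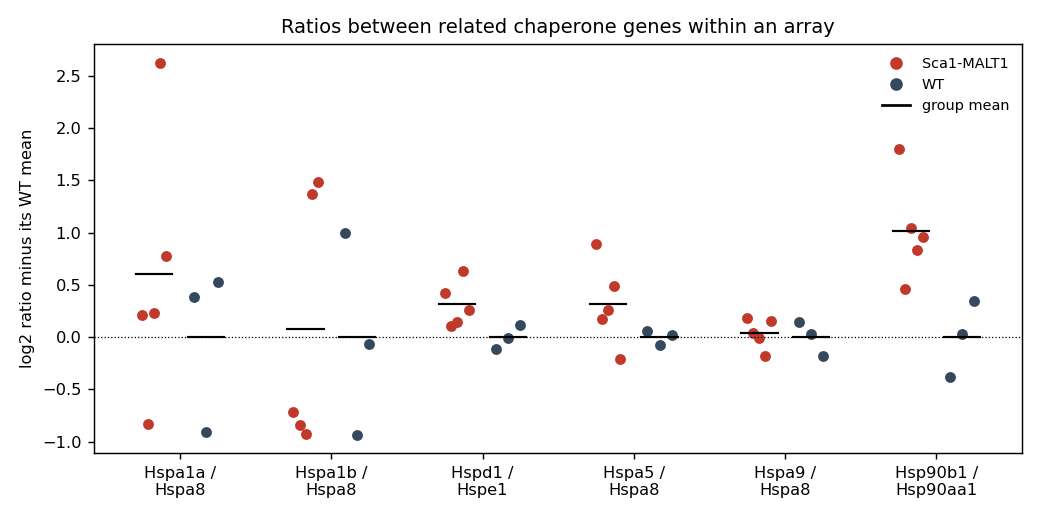
Log2 ratio of 6 gene pairs in each array minus its WT mean (vertical axis), Sca1-MALT1 in red and WT in dark blue, with group means as lines. The ratio of Hsp90b1 to Hsp90aa1 lies above all WT arrays in all 5 Sca1-MALT1 arrays, and the ratios of Hspa1a and Hspa1b to Hspa8 spread most in both groups.

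The heat shock genes differed in how much they varied over the 8 arrays. The SD was 0.66 for Hsph1, above that of 90.6% of genes, and 0.48 for Hspe1, above 81.8%. It was 0.39 for Hspd1 (72.7%), 0.31 for Hsp90aa1 (61.9%), 0.29 for Hspb1 (58.8%), 0.22 for Hspa8 (42.0%) and 0.17 for Dnajb1 (25.2%). The named gene whose standardised profile over the 8 arrays lay closest to each, by the root mean square difference, was Sybu for Hspa1a (0.194), Tspan5 for Hspa1b (0.160), Eif4a1, a translation initiation helicase, for Hspa8 (0.266) and Cep162 for Hsph1 (0.139). For the others it was 4933429K18Rik for Dnajb1 (0.266), Banf1 for Hsp90aa1 (0.167), the collagen gene Col5a2 for Hspb1 (0.225), Nkrf for Hspd1 (0.189) and Nop56, a core protein of nucleolar ribonucleoproteins, for Hspe1 (0.177). None of these 9 genes passed the threshold between genotypes, with adjusted p-values of 0.415 to 0.927 by limma. This follows from the choice, since each was picked for a profile close to that of a gene that had not passed. Whether such closeness exceeds that expected for the nearest of all genes was not tested.

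Other properties of the samples moved with the genotype or with single arrays, and their part in the values above was not tested. Sca1 itself (Ly6a) was not analysed here. Kit, the receptor that marks progenitors, read 8.43 to 10.65 in Sca1-MALT1 arrays, against 9.24 to 11.06 in WT arrays, and genes of mature lineages also read far above the array medians, such as S100a8 at 12.96 to 14.89 against 14.57 to 15.07 in WT arrays. Plasma cell markers were higher in Sca1-MALT1 in 13 of 13 genes (mean list signal 10.60 to 12.22 in Sca1-MALT1 arrays, against 8.97 to 9.001 in WT arrays), with Jchain past the threshold at 2.58 (adjusted p = 0.0163), Xbp1 at 1.32 and Edem1 at 2.82. B cell markers were lower in 11 of 11 genes (7.71 to 9.23 against 10.04 to 10.72 in WT arrays), with Igll1 and Vpreb1 past the threshold at -3.92 (adjusted p = 0.00228) and -5.55 (adjusted p = 0.00596) and Spib at -2.21. Neutrophil markers spanned 10.44 to 13.83 in Sca1-MALT1 arrays, highest in replicate 4, which also had the highest Hspa1a, against 12.11 to 12.79 in WT arrays. They were lower in 8 of 9 genes, with S100a9 at -1.30, S100a8 at -0.81 and Csf3r at -1.27, and higher in 1, at 1.26. Stem and progenitor markers spanned 7.77 to 10.14 in Sca1-MALT1 arrays, against 9.01 to 10.41 in WT arrays. They were lower in 9 of 11 genes, with Flt3 at -1.59, Hlf at -1.33 and Cd34 at -2.15, and higher in 2, by up to 0.78. T cell markers spanned 8.48 to 10.15 against 8.71 to 8.96 in WT arrays, monocyte and macrophage markers 9.06 to 11.08 against 9.50 to 11.24, erythroid markers 9.94 to 10.98 against 9.52 to 9.81, and stromal markers 6.94 to 7.72 against 6.50 to 7.55. Immediate early genes had a median of 0.47 with 16 of 18 higher and 0 passing, led by Fosb at 2.18, Fos at 1.60 and Junb at 1.29 (adjusted p = 0.258 to 0.377). Their mean signal was 9.26 to 9.97 in Sca1-MALT1 arrays, lowest in replicate 2, against 8.84 to 9.33 in WT arrays. The excess of 3' over 5' log2 signal, a sign of RNA quality averaged here over the controls for Gapdh and beta-actin, was 1.75 to 2.85 in Sca1-MALT1 arrays, against 2.19 to 2.42 in WT arrays (exact permutation p = 0.661 for the difference in means), lowest in replicate 4 and highest in replicate 5.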

How the data were processed

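The labels describe TRIzol extraction, linear amplification of total RNA and 1-colour Affymetrix hybridisation. The deposited table holds log2 values that the authors made with RMA (background correction, quantile normalization and probe summary), as the submitters' processing notes record. Its version is not given in the sources used here, and the log2 scale was read from the values (2.73 to 15.41). Of 45101 probe sets, 64 controls were left out, 34945 had 1 gene symbol, 932 had several and 9160 were unlisted. Symbols were updated by Entrez identifier from RefSeq (GRCm38.p6). Each gene was represented by its brightest probe set over 8 arrays. RMA gives no detection call and no filter was applied.

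Genotypes were compared with limma 3.58.1 in R 4.3.3 over all 18193 genes, and separately over all probe sets, two-sided, with Benjamini-Hochberg adjustment and a threshold of 0.05. Single values were compared by exact two-sided permutation over the 56 splits of all arrays, or over the splits of the low-Xist arrays where these were used alone. All log2 differences are Sca1-MALT1 minus WT, and errors are SE of the fit. The number of arrays limits the precision. Named genes were all members, and per list those past the threshold and the 3 with the lowest p. Genes named for not overlapping in the low-Xist arrays were chosen after their values were seen, and Kit, S100a8, Hspa5 and Hspa9 were named beyond the rule. The members and lists were chosen with earlier results of these data known.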

Additional observations from a re-analysis of the deposited data

How the results depend on the processing

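The call for the heat shock genes kept its side of the threshold in every fit. By limma, 0 of 9 genes and 0 of 22 probe sets passed under quantile normalization, centring, both filters on dim genes, trend with robust variance, array weights, thresholds of 0.01 and 0.1, the 3' to 5' covariate, Xist as a term, the low-Xist arrays alone (chosen after seeing the data), the replicate block and each array left out, and 0 of 9 genes passed with the mean or the most variable probe set of a gene. Hspa1a and Hspb1 fell below the median filter and gave no value there. The fit with Xist as a term and the low-Xist fit give the same genotype differences and do not count as separate checks. The threshold of 0.01 is stricter than the main one, so it could not change the call and is no check of it. With the replicate block 0 of all genes passed, so its 0 of 9 is not particular to the heat shock genes. The number of all genes past the threshold, 16, was 28 with array weights, 8 at 0.01 and 38 at 0.1. It was 29 with Xist as a term, 59 in the low-Xist arrays and 0 with the replicate block. With arrays left out, it ranged from 8 without Sca1-MALT1 replicate 3 to 38 without Sca1-MALT1 replicate 2.

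Directions turned in 3 genes and 2 ratios, none of which had passed. Hspa1b was 0.013 with the mean of its probe sets and 0.13 with the 3' to 5' covariate. Dnajb1 was 0.19 with the mean of its probe sets and 0.50 with the most variable one. With arrays left out, Hspa1a ranged from -0.084 (without Sca1-MALT1 replicate 4) to 0.75, Hspa1b from -0.48 to 0.44, and the ratios to Hspa8 from -0.39 to 0.57 for Hspa1b and from -0.050 to 0.11 for Hspa9. In the low-Xist arrays the ratio of Hspa1b to Hspa8 was -0.052. Hspa8, Hsph1, Hsp90aa1, Hspd1 and Hspe1 stayed below 0 and Hspb1 above 0 in every fit. Over the alternatives other than left-out arrays the adjusted p was at least 0.151 for Hsph1 and 0.221 for Hspe1.

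Both genotypes carry replicate numbers 1 to 3, but deviations of same-numbered arrays from their group means correlated at -0.22, -0.04 and 0.01 over genes, so the numbers were not taken to pair the samples. With the replicate number as a block, 0 genes passed. The fit in all arrays and that in the arrays with a shared number give the same estimates, since the other Sca1-MALT1 arrays have no WT array in their block. In it Hspa1a was at -0.33 and Hspa1b at -1.02 (SE 0.47, adjusted p = 0.506 by limma), against -0.06 for Hspa1b without the block. The cause of these shifts was not tested. RMA signals near the array medians, as for Hspa1a, cannot be separated from background.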
